A study of Mus musculus with 2 samples.

Results

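Nr4a1, Nr4a2 and Nr4a3, the 3 orphan nuclear receptors of the NR4A family, were followed among the 32285 genes measured in single cells of the mouse colon lamina propria. They were chosen by gene symbol, and their levels were read in 6 cell classes set by marker genes. There were 2 libraries, titled Runx3_fl and Runx3, each the only library of its group, so no difference between them was tested. Every interval below is at 95% and covers counting error only. The study compared Runx3 fl/fl mice carrying Lyz2-Cre, which is active in myeloid cells, with Runx3 fl/fl littermates without Cre, so that all animals carried the floxed allele, and its description of these single-cell data gives a pool of 6 male mice of 8 weeks and names no treatment, while its general methods list mice of both sexes. The titles do not say which library carried Cre, and no genotype is assigned here. Per the labels the cells were CD11b+, a myeloid surface protein encoded by Itgam. Levels are given as CPM, the sum of a gene's UMIs in a class scaled to 1000000 UMIs of that class, where a UMI is a barcode that marks a single captured RNA molecule.

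NR4A proteins are transcription factors without a known physiological ligand, so their activity follows mainly from how much protein is made. Their genes are immediate early genes, transcribed within minutes of receptor signalling, calcium entry, cAMP or stress through factors such as CREB, SRF and MEF2. Nr4a1 (Nur77) is needed for patrolling Ly6C-low monocytes, restrains inflammatory cytokine genes in macrophages and reports antigen receptor signalling in lymphocytes. Nr4a2 (Nurr1) is best known from dopaminergic neurons and represses NF-kB targets in macrophages and microglia. Nr4a3 (Nor1) has been tied to dendritic cell migration, and all 3 genes act in regulatory and exhausted T cells.

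On GRCm38, Nr4a1 (ENSMUSG00000023034) lies at chr15:101254269-101274795 on the plus strand, Nr4a2 (ENSMUSG00000026826) at chr2:57106830-57124003 on the minus strand and Nr4a3 (ENSMUSG00000028341) at chr4:48045153-48086447 on the plus strand. None of the 3 overlaps another annotated gene. Because CREB drives immediate early genes from half-sites spelled CGTCA, read as TGACG from the other strand, the 250 bases before each start site of the RefSeq promoter table (GRCm38.p6) were searched on both strands. Each member held 4 half-sites, a number reached by 45 of 32851 promoters of the same length (0.137%), while 17.8% held at least 1. Half-sites inside a full site would be counted in both lists, but the full site TGACGTCA was in none of the 3 windows and in 1.55% of all promoters. The NR4A monomer element AAAGGTCA was likewise in none of the 3 and in 1.34% of all. The start sites used for Nr4a1 and Nr4a3 lie inside their GENCODE genes, downstream of the first base. A stretch of 30 bases from each promoter, 5′ to 3′ on the strand of the gene, is given to show the half-sites, in capitals.
Nr4a1, chr15:101266794-101266823, plus strand: cccctctccatgCGTCAcggagcgcttaag
Nr4a2, chr2:57124103-57124132, minus strand: ccgggcTGACGgggccgcTGACGcgcttgg
Nr4a3, chr4:48045071-48045100, plus strand: gggTGACGtagcgtcccatgtCGTCAcatt
These letters describe the promoters and not binding in these cells.

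The 2 libraries held 12968 and 8953 barcodes in the order Runx3_fl and Runx3, of which 11885 and 8167 were kept at 200 to 6000 genes and at most 15% mitochondrial UMIs. The median kept cell had 9573 and 5731 UMIs, and 37 barcodes were in both libraries (0.285% and 0.413%). A cell entered a class when it had a UMI of that class's gate and of no other gate. The gates were Csf1r with C1qa for macrophages (254 and 276 cells), Flt3 for conventional dendritic cells or cDC (910 and 455), Csf3r for neutrophils (1378 and 1448), Ncr1 for NK cells (1294 and 101), Cd3e for T cells (2838 and 389) and Cd79a for B cells (353 and 1243). Cells passing no gate numbered 3690 and 2656. Of the 719 and 1083 cells passing the macrophage gate, 35.3% and 25.5% passed no other gate and made up the class. Among those 719 and 1083 cells, 368 and 672 also had a Csf3r UMI and were left out. All 8 macrophage markers were highest in the macrophage gate in both libraries, and all 7 NK, 7 T and 7 B markers in their own gates. Of 8 cDC markers 7 and 8 were highest in the cDC gate, and of 7 neutrophil markers 7 and 6 in the Csf3r gate. These lists include the gate genes. A cell with the gene of a single-gene gate was left out of other classes, which fixed that gene's place in advance. The Csf3r gate also held most monocyte markers at their highest (5 and 6 of 6) and the Cd79a gate all 6 plasma cell markers, so both were split further below. Itgam was at 43.4 and 27.5 CPM in T-gated cells against 132 and 230 in macrophages, and many gated cells were of classes outside the CD11b+ label. In Runx3_fl, 2756 cells had Xist and no Y-linked UMIs and 7059 had Y-linked UMIs and no Xist. In Runx3, 0 and 6057 did, where a count of 0 allows up to 0.0367% of cells. The Runx3_fl library thus held cells of both sexes, against the male mice given for the single-cell pool.

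The gene Runx3 itself, a RUNX-family transcription factor, was at 157 CPM in macrophages of the Runx3_fl library and 245 in the Runx3 library, a log2 ratio of 0.64 [0.46, 0.81]. Which exon the floxed allele removes is not given in the sources used here, and a 3′ count outside it checks nothing about deletion. Runx3 overlaps Gm16224 on the opposite strand.

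All 3 members were highest in NK cells in both libraries. Nr4a1 stood at 409 CPM in NK cells of Runx3_fl, then 273 in neutrophil-gated cells, 223 in T cells, 212 in cDC, 123 in macrophages and 81.8 in B-gated cells. In Runx3 the order was NK cells (764), T cells (474), cDC (426), neutrophil-gated cells (414), B-gated cells (357) and macrophages (348). The T and cDC intervals overlapped in Runx3_fl, and in Runx3 the cDC and neutrophil intervals and the B and macrophage intervals did. From the highest to the lowest class Nr4a1 spanned 5.00-fold in Runx3_fl and 2.20-fold in Runx3, the narrowest span of the 3 genes in each library.

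Nr4a2 had the widest span, 21.6-fold in Runx3_fl and 10.2-fold in Runx3. In Runx3_fl it stood at 817 CPM in NK cells, 394 in cDC, 326 in T cells, 125 in neutrophil-gated cells, 109 in macrophages and 37.8 in B-gated cells. In Runx3 it stood at 1009 in NK cells, 473 in T cells, 365 in cDC, 167 in macrophages, 144 in neutrophil-gated cells and 98.5 in B-gated cells. Neutrophil-gated cells and macrophages had overlapping intervals in both libraries.

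Nr4a3 spanned 12.1-fold and 4.57-fold. In Runx3_fl it was at 719 CPM in NK cells, 685 in cDC, 419 in neutrophil-gated cells, 327 in macrophages, 240 in T cells and 59.5 in B-gated cells. In Runx3 it was at 743 in NK cells, 719 in T cells, 603 in cDC, 255 in macrophages, 227 in neutrophil-gated cells and 163 in B-gated cells. T cells thus moved from the fifth place to the second, with an interval overlapping that of NK cells.

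**Figure D1:**
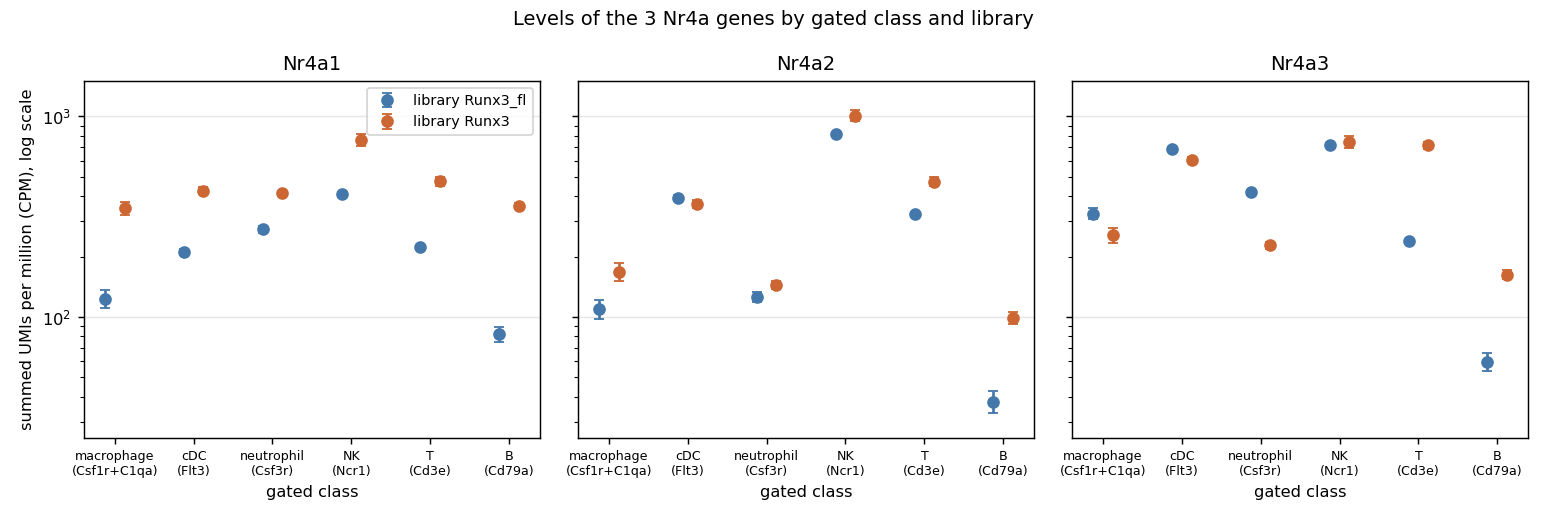
Level (CPM, log axis) of Nr4a1, Nr4a2 and Nr4a3 in each gated class, with blue for library Runx3_fl and orange for library Runx3. Bars are exact 95% Poisson intervals of the sum, covering counting error only. NK cells are highest for each gene in both libraries, and Nr4a1 is higher in Runx3 in all 6 classes.

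Between the libraries the 3 members did not move alike. Nr4a1 was higher in Runx3 in 6 of 6 classes, and at least 2-fold higher in 4 of them, namely macrophages, cDC, T cells and B-gated cells. The share of all genes tested that were at least 2-fold higher in Runx3 was 13.5% in macrophages, 8.31% in cDC, 12.6% in neutrophil-gated cells, 6.47% in NK cells, 14.0% in T cells and 20.7% in B-gated cells. At least 2-fold lower were 3.52%, 1.93%, 3.41%, 1.79%, 10.0% and 16.4% in the same order. A gene was tested in a class when it reached 10 CPM in a library. Nr4a2 was higher in 5 classes and lower in cDC. Nr4a3 was higher in T and B-gated cells, lower in macrophages, cDC and neutrophil-gated cells, and in NK cells its interval included 0. The median gene itself lay above 0, by 0.20 on the log2 scale in macrophages, 0.10 in cDC, 0.25 in neutrophil-gated cells, 0.06 in NK cells, 0.06 in T cells and 0.24 in B-gated cells. In the T-gated comparison 2 members reached 2-fold and in the B-gated comparison all 3 did, in the classes where the background share was also among the highest.

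Macrophages are the class in which the study places its question about Runx3 and Nr4a1. It reported lower Nr4a1 in colon macrophages of its Runx3 knockout mice than of controls, most strongly in resident macrophages. With no genotype assigned here, the values below are not set against that direction. In macrophages Nr4a1 was at 123 CPM in Runx3_fl and 348 in Runx3, a log2 ratio of 1.50 [1.32, 1.68], with 5.93% of the 8175 tested genes above it. Nr4a2 was at 109 and 167, a ratio of 0.62 [0.40, 0.83], and Nr4a3 at 327 and 255, a ratio of -0.36 [-0.51, -0.21]. The first 2 were thus higher and Nr4a3 lower in the Runx3 library, each by more than counting error. Thinned to 2000 UMIs per cell, the Nr4a1 ratio was 1.30 [0.88, 1.73], and the Nr4a2 ratio was 0.31 [-0.24, 0.86], an interval that includes 0. Over every cell passing the macrophage gate, also those with other gate genes, the Nr4a2 ratio was 0.11.

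The macrophage pattern held in cells with Ly6c2, a marker of incoming inflammatory monocytes (165 and 223 cells). There Nr4a1 was at 126 and 367 CPM, Nr4a2 at 97.2 and 193 and Nr4a3 at 316 and 266. Ly6c2 was not particular to myeloid classes, at 615 and 1322 CPM in macrophages, 910 and 2198 in neutrophil-gated, 758 and 937 in B-gated and 565 and 498 in T cells. It was lower in cDC (142 and 685) and NK cells (94.7 and 273). Macrophage-gated cells without a Ly6c2 UMI (89 and 53 cells) had Nr4a1 at 115 and 252 CPM, a ratio of 1.13 [0.72, 1.54]. Nr4a2 took the opposite side there, at 135 and 40.7 CPM, a ratio of -1.73 [-2.61, -0.96], and Nr4a3 was at 351 and 201. Nr4a2 in these cells rested on 133 and 15 UMIs. Those cells had a median of 11519 UMIs in Runx3_fl and 4337 in Runx3, so lacking a Ly6c2 UMI was not an equally strict condition in both libraries. Requiring also Mrc1 or Cx3cr1, markers of resident macrophages, left 40 and 33 cells, with Nr4a1 at 107 and 222 CPM, Nr4a2 at 140 and 26.8 and Nr4a3 at 305 and 245. Nr4a1 was again higher in Runx3, at a ratio of 1.06 [0.51, 1.61], Nr4a2 was lower, at -2.38 [-3.74, -1.27], and the Nr4a3 interval included 0. Nr4a2 rested here on 76 and 7 UMIs. Cells with Csf1r and Ly6c2 but no C1qa, a monocyte gate outside the 6 classes, numbered 442 and 548. Their Nr4a1 was at 165 and 433 CPM, a ratio of 1.39 [1.27, 1.51], their Nr4a2 at 179 and 240 and their Nr4a3 at 380 and 294, the same sides as in macrophages.

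**Figure D2:**
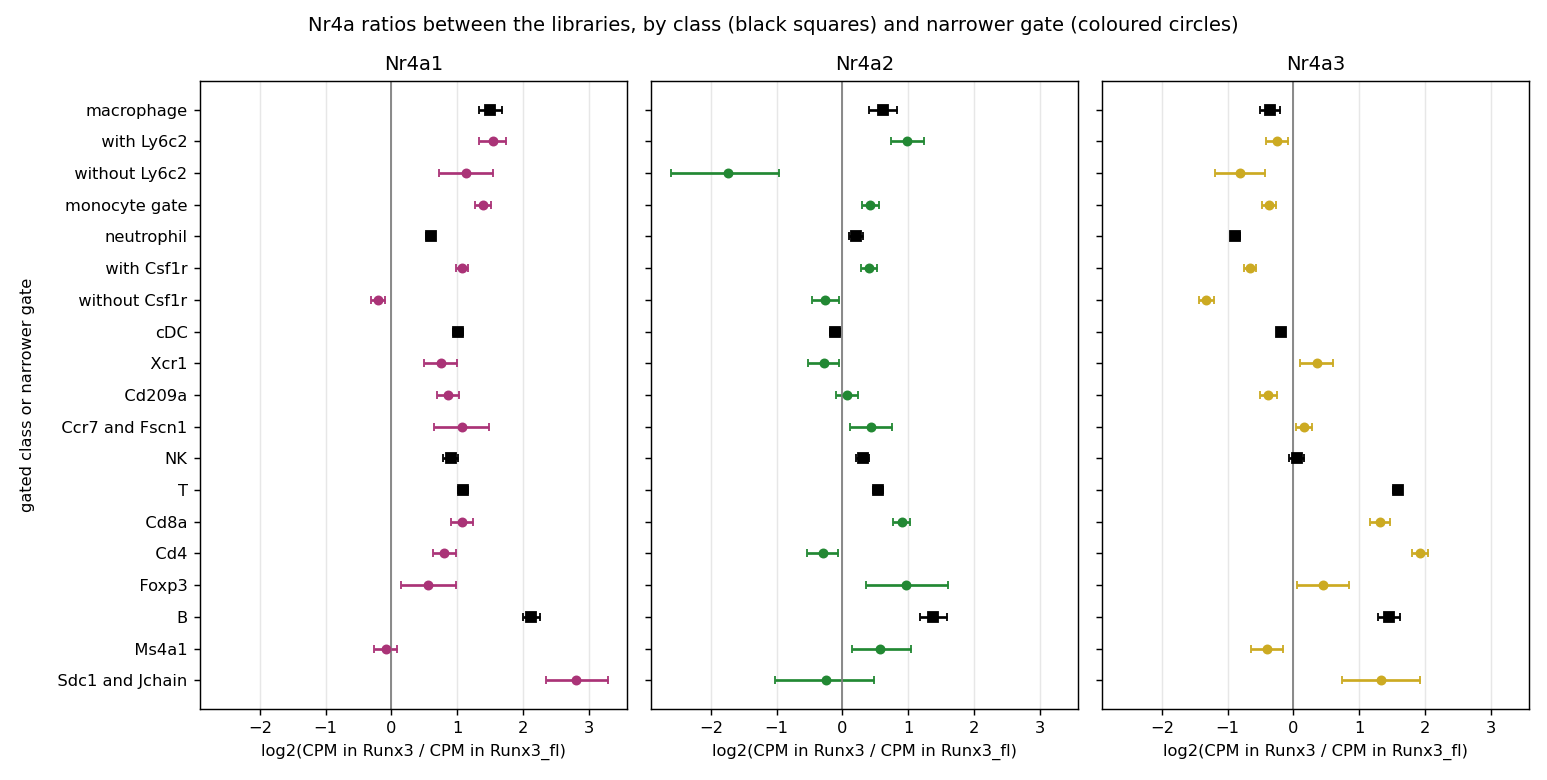
Log2 ratio of CPM in library Runx3 over library Runx3_fl for each Nr4a gene, by gated class (black squares) and narrower gate (coloured circles), with exact 95% conditional intervals. Nr4a1 lies above 0 in nearly all gates, with neutrophils without Csf1r below 0 and Ms4a1 B cells at -0.09 (Camp or Ltf neutrophils, not drawn, are at -0.20), while Nr4a2 and Nr4a3 take both sides.

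Neutrophil-gated cells split into those with a Csf1r UMI (694 and 725 cells) and those without (684 and 723), a split chosen after the monocyte markers in this gate were seen. Over the whole gate Nr4a1 was at 273 and 414 CPM, a ratio of 0.60 [0.53, 0.67]. With Csf1r, the receptor for M-CSF carried by monocytes, it was at 197 and 416, a ratio of 1.08 [0.99, 1.17]. Without Csf1r it was at 474 and 411, a ratio of -0.21 [-0.31, -0.10]. The higher Nr4a1 of the Csf3r gate in Runx3 was thus found in its Csf1r cells and not in the others. Nr4a2 also changed side, from 121 and 160 CPM with Csf1r to 136 and 114 without it. Nr4a3 was lower in Runx3 on both sides of the split, at 335 and 212 CPM with Csf1r and at 637 and 254 without, a ratio of -1.32 [-1.44, -1.21]. Over the whole gate the Nr4a3 ratio was -0.88 [-0.95, -0.81], with 4.27% of tested genes below it. The summed neutrophil markers of this gate were at 5336 CPM in Runx3_fl and 40787 in Runx3, and cells with Camp or Ltf, granule genes of younger neutrophils, numbered 95 and 507. Within the Camp or Ltf cells Nr4a3 was at 469 and 193 CPM and Nr4a1 at 427 and 372, both lower in Runx3, while Nr4a2 was higher, at 60.7 and 119. The other cells of the gate, with neither gene, had Nr4a1 at 263 and 447 CPM, higher in Runx3. Their Nr4a3 was at 415 and 254 and their Nr4a2 at 130 and 164. Any part of neutrophil age in these ratios was not tested.

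In cDC, Nr4a1 was at 212 and 426 CPM, a ratio of 1.01 [0.93, 1.09], Nr4a2 at 394 and 365 and Nr4a3 at 685 and 603. The Nr4a2 and Nr4a3 ratios were small, -0.11 [-0.18, -0.04] and -0.18 [-0.24, -0.13]. Nr4a3 differed more between kinds of cDC than between libraries. Cells with Ccr7 and Fscn1, the receptor and the bundling protein of dendritic cells on their way to lymph nodes (139 and 39 cells), held 1636 and 1828 CPM of Nr4a3, the highest level of any gate described here with at least 20 cells in each library. Cells with Cd209a, a cDC2 marker (113 and 138 cells), held 632 and 484, lower by 2.59-fold and 3.78-fold. Cells with Xcr1, the cDC1 chemokine receptor (262 and 24 cells), held 264 and 337. Nr4a1 ran the other way, at 87.2 and 183 CPM in Ccr7 and Fscn1 cells against 283 and 513 in Cd209a cells. Thinned to 2000 UMIs, 86.1% and 82.1% of the Ccr7 and Fscn1 cells had a Nr4a3 UMI, and 15.3% and 30.8% had a Nr4a1 UMI. Nr4a2 was highest in Xcr1 cells among the 3 kinds, at 464 and 382 CPM, against 340 and 356 in Cd209a cells and 201 and 272 in Ccr7 and Fscn1 cells. In Runx3 the interval of the ratio of Xcr1 over Cd209a cells included 0 (0.10 [-0.16, 0.35]).

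In NK cells, where the 101 cells of Runx3 stood against 1294 of Runx3_fl, Nr4a1 was at 409 and 764 CPM, a ratio of 0.90 [0.79, 1.01]. Nr4a2 was at 817 and 1009, a ratio of 0.31 [0.21, 0.40], and Nr4a3 at 719 and 743, a ratio of 0.05 [-0.06, 0.15]. Only Nr4a1 was among the tenth of genes with the largest ratios, with 8.04% of genes above it. At 2000 UMIs per cell, 4.96% of NK cells in Runx3_fl and 1.01% in Runx3 had a UMI of no member, and 29.8% and 40.4% had UMIs of all 3. The gene Runx3, which acts in NK cell development, was at 841 and 627 CPM there.

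In T cells, Nr4a3 had the largest difference of the family, from 240 CPM in Runx3_fl to 719 in Runx3, a ratio of 1.58 [1.52, 1.65]. Nr4a1 was at 223 and 474, a ratio of 1.08 [1.00, 1.16], and Nr4a2 at 326 and 473, a ratio of 0.54 [0.46, 0.62]. The share of thinned cells with a Nr4a2 UMI was nearly the same, 41.6% and 41.8%, whereas for Nr4a3 it was 35.8% and 63.8%. Cells with Cd4 (1247 and 90) had Nr4a3 at 206 and 784 CPM, a ratio of 1.93 [1.80, 2.05], Nr4a1 at 218 and 382 and Nr4a2 at 251 and 204. Cells with Cd8a (1074 and 73) had Nr4a3 at 237 and 590, Nr4a1 at 212 and 446 and Nr4a2 at 384 and 717. Nr4a2 was thus lower in Runx3 among Cd4 cells, at a ratio of -0.29 [-0.53, -0.07], and higher among Cd8a cells, at 0.90 [0.76, 1.03]. Cells with none of Cd4, Cd8a and Foxp3 numbered 446 of 2838 and 191 of 389, so the mix of the T gate differed between the libraries. They had Nr4a1 at 288 and 562 CPM, Nr4a2 at 418 and 571 and Nr4a3 at 408 and 828, each higher in Runx3. Cells with Foxp3, the regulatory T cell factor, numbered 25 and 33 and had Nr4a1 at 271 and 397 CPM, Nr4a2 at 117 and 229 and Nr4a3 at 311 and 424. The T-gated cells of Runx3 were also fewer and shallower, with a median of 7261 UMIs against 12719.5.

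B-gated cells had the lowest Nr4a2 and Nr4a3 of the 6 classes in both libraries and the largest Nr4a1 ratio, 81.8 and 357 CPM, or 2.13 [1.99, 2.26]. Their Nr4a2 was at 37.8 and 98.5 and their Nr4a3 at 59.5 and 163. The gate held different mixes of cells: of 353 cells in Runx3_fl and 1243 in Runx3, 101 and 719 had Ms4a1 (CD20) and no Sdc1, while 164 and 55 had the plasma cell genes Sdc1 and Jchain and no Ms4a1. Within Ms4a1 cells, a comparison added after this mix was seen, Nr4a1 was at 417 and 392 CPM, a ratio of -0.09 [-0.26, 0.09], and Nr4a3 at 239 and 180, a ratio of -0.41 [-0.64, -0.17]. Nr4a2 stayed higher in Runx3 there, at 64.5 and 96.3, a ratio of 0.58 [0.15, 1.04]. The class-wide Nr4a1 and Nr4a3 differences were thus not found among B cells with Ms4a1. Plasma-gated cells had the lowest levels of any gate with at least 20 cells in each library, with Nr4a1 at 12.9 and 90.7 CPM, Nr4a2 at 17.9 and 15.1 and Nr4a3 at 13.2 and 33.3. Within this gate Nr4a1 was thus higher in Runx3, at a ratio of 2.81. The part of the cell mix in the B-gated ratios was not tested. In Runx3_fl the Ms4a1 cells exceeded the plasma-gated cells 32.2-fold for Nr4a1 and 18.2-fold for Nr4a3.

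Over 14 narrower gates with at least 20 cells in each library, without the added Csf1r split and the 40 and 33 macrophages nested in another gate, the interval lay above 0 for Nr4a1 in 12, for Nr4a2 in 9 and for Nr4a3 in 7. It lay below 0 in 1, 3 and 7. The median ratio over these gates was 0.91 for Nr4a1, 0.43 for Nr4a2 and -0.045 for Nr4a3. All gates come from the same 2 libraries and are not replicates. Over all kept cells together Nr4a1 was at 241 and 417 CPM, Nr4a2 at 365 and 227 and Nr4a3 at 428 and 346, so that Nr4a2 lay on the opposite side from 5 of the 6 classes. NK and T cells, with more Nr4a2 than most classes, made up 10.9% and 23.9% of the kept cells of Runx3_fl and 1.24% and 4.76% of those of Runx3. Cells passing no gate, 31.0% and 32.5% of kept cells, were themselves lower in Runx3 for Nr4a2 and Nr4a3, with Nr4a2 at 507 and 287 CPM and Nr4a3 at 653 and 465. Cells passing several gates, 9.83% and 19.6%, had Nr4a2 at 259 and 188 and Nr4a3 at 303 and 293. The part of the cell mix in the values over all kept cells was not tested.

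Each captured molecule counts once whatever its length, so the UMIs of the family were also divided among its members. Nr4a1 made up 22.0% [20.1, 24.0] of the 1774 family UMIs in macrophages of Runx3_fl and 45.1% [42.8, 47.5] of 1708 in Runx3. In cDC it made up 16.4% and 30.6%, in neutrophil-gated cells 33.4% and 52.7%, in NK cells 21.0% and 30.4% and in B-gated cells 45.7% and 57.8%. T cells were the exception, with 28.3% [27.8, 28.8] and 28.4% [27.2, 29.7]. The share taken by Nr4a1 was therefore larger in Runx3 in 5 of 6 classes, and over all kept cells it was 23.3% and 42.2%. Within Ms4a1 B cells, however, it was 57.8% [53.5, 62.1] and 58.6% [56.9, 60.3], with overlapping intervals.

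**Figure D3:**
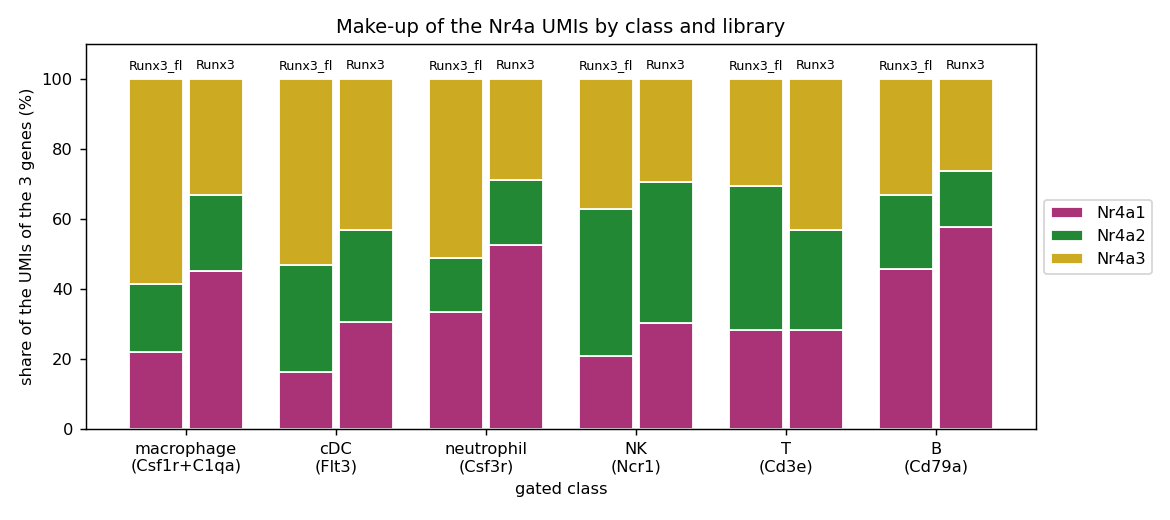
Share of the UMIs of the 3 genes (percent, stacked to 100) taken by Nr4a1, Nr4a2 and Nr4a3 in each gated class, with library Runx3_fl on the left and Runx3 on the right of each pair. The Nr4a1 share is larger in Runx3 in every class but T cells, where it is 28.3% and 28.4%. Ms4a1 B cells, not drawn, have 57.8% and 58.6%.

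The share of cells with a UMI followed the CPM in macrophages when all cells were brought to 2000 UMIs and the 6 and 50 shallower macrophages were dropped. Nr4a1 was detected in 22.6% [17.5, 28.3] and 45.1% [38.5, 51.9], Nr4a2 in 17.3% and 19.5%, and Nr4a3 in 37.9% and 31.9%. Before thinning the shares were 58.3% and 70.7%, 48.4% and 39.1%, and 78.7% and 54.3%, at median depths of 12785.5 and 6380.5 UMIs. Plasma-gated cells, which had the least of these RNAs, gave thinned shares of 1.83% and 16.7% for Nr4a1, 3.66% and 7.41% for Nr4a2 and 1.22% and 11.1% for Nr4a3, so the macrophage shares lay above them. At least 1 member was detected in 61.7% and 69.9% of macrophages, and all 3 in 1.61% and 4.87%. The UMIs of each gene were unevenly spread, the tenth of macrophages with the most Nr4a1 holding 40.3% of its UMIs in Runx3_fl and 45.0% in Runx3. The same share was 52.0% and 65.2% for Nr4a2 and 40.7% and 52.1% for Nr4a3. Counting intervals treat UMIs as independent and leave out this spread between cells.

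UMIs of S100a8, a neutrophil gene, were found in other classes at 1.79 to 4.41 CPM in Runx3_fl and 97.7 to 167 CPM in Runx3. The source of these UMIs, free RNA or doublets, was not tested. Against 163.5 and 4653 CPM over all kept cells, the macrophage values are 2.70% and 3.59% of the library's own level. Were the Nr4a RNAs carried in the same proportion, Nr4a1 would come to 6.50 and 15.0 CPM in macrophages, 5.29% and 4.31% of what was measured there. In plasma-gated cells, where the levels were lowest, the same reckoning gives 18.1% and 8.07% of Nr4a1, 19.8% and 26.3% of Nr4a2 and 31.6% and 18.2% of Nr4a3. With Jchain, a plasma cell gene, in place of S100a8, the share of Nr4a1 ran from 2.09% to 14.2% over the classes other than B in Runx3_fl and from 1.42% to 9.41% in Runx3, highest in cDC.

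Within macrophages, cells with a Nr4a1 UMI did not differ beyond counting error from cells without in the share with Nr4a3 (33.9% against 39.1% in Runx3_fl, 32.4% against 31.5% in Runx3), Nr4a2 (16.1% against 17.7%, and 17.6% against 21.0%) or the gene Runx3 (19.6% against 22.4%, and 33.3% against 37.9%), all at 2000 UMIs. Zfp36, an RNA-binding protein that destabilises cytokine transcripts, was found in 73.2% against 56.8% and in 85.3% against 81.5%, with overlapping intervals. Fos was found with Nr4a1 more often in Runx3, in 70.6% [60.7, 79.2] against 50.8% [41.7, 59.9], and in 37.5% against 39.1% in Runx3_fl. With 56 to 192 cells a side in Runx3_fl, only large differences were detectable. Members were found together more often in some other classes: among neutrophil-gated cells with Nr4a1, 55.3% and 40.7% had Nr4a3, against 44.5% and 26.7% of those without. Among B-gated cells the figures were 36.6% and 27.2% against 9.71% and 18.8%, and among T cells 41.6% and 71.8% against 32.9% and 56.2%. Over the 6 classes and 2 libraries the Nr4a1 interval lay above for Nr4a3 in 6 of 12 and for Nr4a2 in 4 of 12 comparisons, and below in 0. In cDC both overlapped, and in NK cells Nr4a3 did. The part of different kinds of cells within a class, as the B and plasma cells above, in these shares was not tested.

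The other immediate early genes were read as a list of 29, of which 28 were in the files. In macrophages 27 were tested, 11 were at least 2-fold higher in Runx3 and 0 at least 2-fold lower, and their median ratio was 0.73 against 0.20 for all genes. Among all genes 13.5% were that much higher and 3.52% lower. Jun, the partner of Fos in the AP-1 factor, was at 84.1 and 456 CPM, a ratio of 2.44 [2.24, 2.64]. Egr1, a zinc finger factor induced by ERK signalling, was at 112 and 330, Ier2 at 97.3 and 280 and Klf2, a factor of quiescent and anti-inflammatory cells, at 43.2 and 157. Arc had the largest ratio, 3.46 [1.73, 5.84], but rested on 0.945 and 10.4 CPM. At the other end stood Nfkbiz, an NF-kB co-factor, at 954 and 599, and Klf6 at 1262 and 1071. With Nr4a1 at 1.50 and Nr4a3 at -0.36, the family lay inside the range of the list, which ran from -0.67 for Nfkbiz to 3.46 for Arc.

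The same list had 8 of 27 genes at least 2-fold higher in cDC, 4 of 26 in neutrophil-gated cells, 4 of 26 in NK cells, 19 of 27 in T cells and 18 of 24 in B-gated cells, and 0 lower save 1 in neutrophil-gated cells. Of all genes 8.31%, 12.6%, 6.47%, 14.0% and 20.7% were that much higher in the same order, so the count in neutrophil-gated cells was near the background. Its median was 0.72, 0.40, 0.55, 1.50 and 1.68 in that order. Zfp36, which is on the list, was at 627 and 1356 CPM in macrophages and at 90.4 and 611 in T cells. Nr4a1 was above the median of the list in macrophages, cDC, neutrophil-gated, NK and B-gated cells and below it in T cells, where Nr4a3 was above it. The part of cell handling, depth or sex of the cells in these shared differences was not tested. Heat shock genes, which respond to tissue handling as well as to other stress, had 4 of 11 at least 2-fold higher in macrophages and 0 lower, with a median of 0.67. Among all genes of that class 13.5% were that much higher and 3.52% lower. Of 11 tested in each other class, 4 were that much higher in cDC, 5 in neutrophil-gated cells and 4 in NK cells. In T cells 5 were and in B-gated cells 3, with 0 lower in any of these classes. Their medians were 0.60, 0.67, 0.67, 0.71 and 0.63, beside 8.31%, 12.6%, 6.47%, 14.0% and 20.7% of all genes that much higher. In macrophages Hspa1a was at 181 and 1172 CPM and Hspa1b, a near-identical copy, at 111 and 882, so that reads may be split between them.

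**Figure D4:**
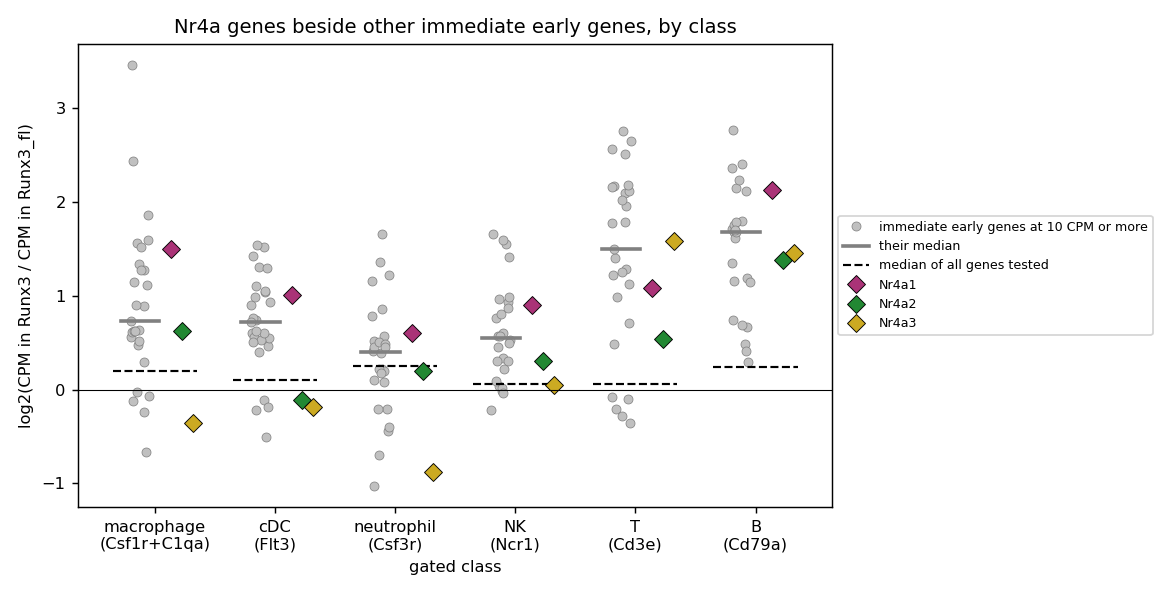
Log2 ratio of CPM in library Runx3 over library Runx3_fl in each gated class for the other immediate early genes at 10 CPM or more (grey circles, bar at their median) and the 3 Nr4a genes (diamonds). The dashed line is the median of all genes tested. In macrophages the list's median is 0.73 against 0.20 for all genes, with Nr4a1 at 1.50 and Nr4a3 at -0.36.

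Of 29 tested genes of MAPK, calcium and CREB signalling, 4 were at least 2-fold higher in macrophages of Runx3 and 0 lower, with a median of 0.34, a share close to the 13.5% of all genes. The ERK phosphatases Dusp4 and Dusp6 led, at 2.83 and 15.3 CPM and at 24.3 and 77.6, and Nfatc2 and Mef2c followed. The kinase gene Map2k1 (MEK1) had the lowest ratio of the tested genes, -0.47, at 144 and 104 CPM. Of 12 tested partners and co-factors of NR4A proteins, none reached 2-fold in either direction and the median was 0.46. The co-activator Ncoa3 was at 72.1 and 116 CPM.

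Genes described as NR4A targets took both directions. The lists were not divided into activated and repressed targets. Zfp36, Il1b and Ccl5 are also named by the study, where silencing Nr4a1 lowered the first and raised the other 2. In resident macrophages of its Runx3 knockout mice, however, the study reported Zfp36, Il1b and Ccl5 all lower than in controls. No genotype is assigned here, so the values below are not set against these directions. Of all genes tested in macrophages, 13.5% were at least 2-fold higher in Runx3 and 3.52% at least 2-fold lower. Of 13 tested targets from monocytes and macrophages, 4 were at least 2-fold higher in macrophages of Runx3 (Klf2, Cebpb, Cx3cr1 and Zfp36) and 6 at least 2-fold lower (Il1b, Ccl5, Tnf, Nos2, Il6 and Il12b), with a median of -0.59. Those lower encode inflammatory cytokines, a chemokine and the inducible nitric oxide synthase, and those higher include Cx3cr1, the fractalkine receptor of patrolling monocytes and resident macrophages, at 43.8 and 138 CPM. Nos2 was at 72.4 and 9.02 and Il12b at 135 and 17.6. Macrophages with a Nos2 UMI held 579 of the 1774 family UMIs of the class in Runx3_fl and 92 of 1708 in Runx3. The part of such cells in the values of these targets was not tested. Of 8 tested targets from T cells, 1 was higher in macrophages (Tox, at 4.41 and 16.2 CPM) and 1 lower (Bcl2l11, encoding the pro-apoptotic BIM, at 724 and 354). The count higher was near the share of all genes. Ctla4 was at 15.1 and 29.3 and Entpd1 at 310 and 188. In T cells 14 of that list were tested, with 5 higher, 5 lower and a median of -0.19. There 14.0% of all genes tested were at least 2-fold higher and 10.0% at least 2-fold lower.

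Against 30 other nuclear receptors, the 3 Nr4a genes held 45.3% and 46.4% of the summed receptor CPM in macrophages, 68.9% and 65.1% in cDC, 53.4% and 48.9% in neutrophil-gated cells, 63.2% and 69.8% in NK cells, 30.4% and 42.4% in T cells and 25.4% and 40.5% in B-gated cells. Nr4a3 was the leading receptor by UMIs in macrophages of Runx3_fl and Nr4a1 in those of Runx3. The glucocorticoid receptor Nr3c1 was the leading receptor outside the family in macrophages of Runx3_fl, at 147 CPM, and Ppard, a fatty acid receptor, in those of Runx3, at 130. In T cells Rora, a factor of helper and innate lymphocytes, stood above all 3 members at 950 and 822. Of 17 other receptors tested in macrophages 4 were at least 2-fold higher and 0 lower, with a median of 0.57, beside 13.5% higher and 3.52% lower among all genes. The clock repressor Nr1d1 was at 2.20 and 22.5 CPM. The mineralocorticoid receptor Nr3c2 had the largest ratio, 4.10 [2.09, 7.23], from 0.630 CPM, or 2 UMIs, in Runx3_fl.

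Across the 12 combinations of class and library, genes were ranked by Pearson correlation of log2(CPM + 1) with each member, among 5622 genes. The points share 2 libraries, their depth and their cell handling, and the values are descriptions. Closest to Nr4a1 were Tatdn2 (0.98), Ier2 (0.96), Mir142hg (0.96), Midn (0.93) and Dnm2 (0.91), of which Ier2 is an immediate early gene and Midn is also induced by stimulation. Closest to Nr4a2 were Elovl5, Tpm4, Crybg1, 1700025G04Rik and Gnb1, all between 0.94 and 0.98, and the gene Runx3 was at place 20 with 0.91. Closest to Nr4a3 were Slk (0.93), Trim36 (0.93), Gpr132 (0.91), Srgap3 (0.91) and Gm36723 (0.90), with Nr4a2 at place 14 (0.87). Nr4a1 correlated with Nr4a2 at 0.72, with Nr4a3 at 0.64, with Runx3 at 0.63 and with Zfp36 at 0.35.

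Because Runx3_fl held cells with Xist and cells with Y-linked UMIs, the members were also compared between those cells within Runx3_fl, and between the libraries in cells with Y-linked and no Xist UMIs alone, a comparison added after the Xist counts were seen. Over the 18 pairs of gene and class the absolute log2 ratio within Runx3_fl had a median of 0.20 and reached 1.33, for Nr4a2 in B-gated cells. Between libraries it had a median of 0.82 and reached 2.21, and it was the larger of the 2 in 17 of 18 pairs. In macrophages Nr4a1 was at 153 CPM in the 33 Xist cells and 114 in the 173 Y-linked cells of Runx3_fl, and at 336 in the 194 Y-linked cells of Runx3. The ratio between libraries in Y-linked cells was 1.56 [1.35, 1.77], close to the 1.50 over all macrophages. Xist cells came from other animals than Y-linked cells, so that the spread within Runx3_fl spans at least 1 difference between animals along with sex. Both kinds of cells shared 1 library, so that spread leaves out differences in handling and depth between libraries. The 2 sets of ratios therefore cover unlike sources of difference, and the count of 17 is a description.

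**Figure D5:**
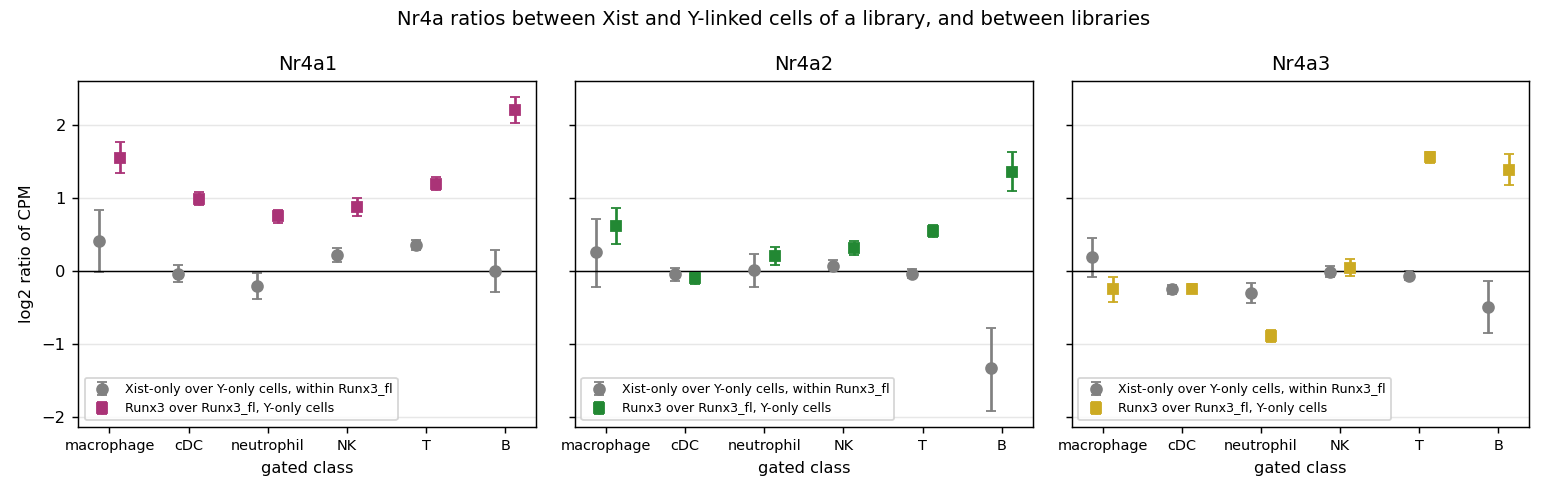
Log2 ratio of CPM for each Nr4a gene by gated class, in grey for cells with Xist over cells with Y-linked UMIs within library Runx3_fl, and in colour for library Runx3 over Runx3_fl in cells with Y-linked and no Xist UMIs. Bars are exact 95% conditional intervals. The ratios between libraries are the larger in 17 of 18 pairs. They can also hold differences in handling and depth between libraries, which the grey ratios leave out.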

How the data were processed

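The authors sorted colon immune cells, built 10x 3′ V3 libraries and deposited matrices of UMI counts for barcodes called as cells. The counts came from Cell Ranger 7.1.0 per the file headers, and mm10 and Seurat 4 are named in the submitters' processing notes. Counts were whole numbers summing to 146204416 and 75478164 UMIs in Runx3_fl and Runx3, and were not normalized. Strand handling is not given in the sources used here. Of 32285 gene IDs, 32235 were in GENCODE M21 (GRCm38), which gave the coordinates. Only the filter on genes and mitochondrial share, which the study states, and the exclusion of cells passing several gates (1168 and 1599) acted on doublets, and no doublet caller was run.

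Cells were gated at 1 UMI of each gate gene. Ratios are log2 of CPM in Runx3 over Runx3_fl with no pseudocount and exact conditional binomial intervals. Levels have exact Poisson intervals, and shares exact Clopper-Pearson intervals. With 1 library per group there was no test and no p-value, and intervals leave out differences between animals. Genes at 10 CPM in a library, with more than 3 UMIs, were tested in a class and called at 2-fold. A floor was 3 counts. Thinning drew 2000 UMIs per cell (seed 1). From each of the 7 lists the 2 highest and 2 lowest genes by macrophage ratio were named, among genes at 10 CPM, together with the members, their 5 most correlated genes and genes named for a count. Of the genes this rule names, 2 are not reported here. Egr1, Ier2 and Ppard and the remaining list genes were named after their values were seen. On simulated counts for 8175 macrophage genes with 200 changed, the scripts were tested and recovered the known ratios. Members, gates and lists were chosen with earlier results of these data known. The scripts ran on matplotlib 3.10.9, pandas 2.3.3, scipy 1.17.1, numpy 2.4.6 and Python 3.11.15.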

Additional observations from a re-analysis of the deposited data

Results flagged for a closer look

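The members took opposite sides between classes under the same contrast of Runx3 over Runx3_fl, each with an interval excluding 0. Nr4a2 was higher in Runx3 in macrophages (log2 ratio 0.62), neutrophil-gated cells (0.20), NK cells (0.31), T cells (0.54) and B-gated cells (1.38), and lower in cDC (-0.11). Nr4a3 was higher in T cells (1.58) and B-gated cells (1.45), and lower in macrophages (-0.36), cDC (-0.18) and neutrophil-gated cells (-0.88). With 1 library per group the difference between classes was not tested. The B gate held different mixes of Ms4a1 and plasma cells, as described above. Among Ms4a1 cells Nr4a2 was at 64.5 and 96.3 CPM and Nr4a3 at 239 and 180. Among plasma-gated cells Nr4a2 was at 17.9 and 15.1 and Nr4a3 at 13.2 and 33.3. Neutrophil-gated Nr4a2 took both sides of the Csf1r split. Nr4a2 also took both sides inside other classes. It was at -0.29 in Cd4 T cells and at -1.73 in macrophages without Ly6c2. In cDC it was at -0.28 in Xcr1 cells, 0.07 in Cd209a cells with an interval including 0, and 0.44 in Ccr7 and Fscn1 cells, while Xcr1 cells were 262 of 910 and 24 of 455.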

How the results depend on the processing

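In macrophages the Nr4a1 ratio was 1.30 with the median gene set to 0, 1.30 thinned to 2000 UMIs and 1.78 as a mean over cells, which weighs cells equally. The Nr4a2 ratio was 0.11 over every cell passing the gate, 0.85 with 500 to 4000 genes and at most 10% mitochondrial UMIs and 0.31 when thinned. The Nr4a3 ratio was -0.20 over every cell passing the gate and -0.55 with the median gene set to 0. None of these alternatives turned the 3 signs, but narrower gates did for Nr4a2, at -1.73 in macrophages without Ly6c2 and -2.38 in those that also had Mrc1 or Cx3cr1. Those ratios rest on 15 and 7 Nr4a2 UMIs in Runx3. Under the alternatives the other 22 macrophage values moved by less than the counting interval. In neutrophil-gated cells Nr4a2 turned to -0.13 over every cell passing the gate and -0.046 with the median gene set to 0. Without Csf1r cells, Nr4a1 there was -0.21 and Nr4a2 -0.26. With Ms4a1 and no Sdc1, Nr4a1 in B-gated cells was -0.088 and Nr4a3 -0.41. In plasma-gated cells Nr4a1 stayed higher in Runx3, at 2.81. The cause of these changes was not tested. At no filter on low values, 11 of 27 other nuclear receptors and 4 of 13 T cell targets reached 2-fold higher in macrophages, beside 22.7% of all genes. At 50 CPM 0 of 5 and 0 of 4 did, beside 7.27% of all genes. No paired analysis was possible because each group had 1 library.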
